A study of Mus musculus with 27 samples.

Results

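Infarct tissue was compared with remote myocardium of the same heart in mice with chronic kidney disease (CKD), 7 days after myocardial infarction. The comparison used the libraries titled Chronic kidney disease from mice that gave both regions, which were 14 of the 27 libraries of the study. They came from mice 9172 and 9174 to 9179, with 7 infarct and 7 remote libraries paired by mouse number, and the remote library of mouse 9173, which had no infarct partner here, was left out. All animals were male, ApoE-/- and of the strain C57BL/6J, so that every group lacked apolipoprotein E, a carrier of plasma lipids, and all ate a western type diet for 4 weeks. The CKD mice then received 0.3% adenine in that diet for 10 days and 0.15% adenine for 11 more, 4 of them before and 7 after the infarction. Adenine in the diet forms crystals in the kidney tubules and damages the kidney. Control mice stayed on the western type diet, and the 12 libraries of the 6 control hearts with both regions enter only the last comparison. No uninfarcted heart was analysed here, so remote myocardium was itself tissue of an injured heart, and the sources used here give neither the way the infarction was made nor how the pieces were cut.

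A healing infarct passes from inflammation to scar formation. Dead cardiomyocytes are cleared by macrophages, and resident fibroblasts divide, turn into myofibroblasts and lay down a collagen scar. Muscle that survives at the border lowers its oxidative metabolism and expresses genes of the fetal and stressed heart, among them the natriuretic peptides. RNA was sequenced in bulk, so that fewer cells of a type and less RNA per cell cannot be told apart in any of the values below.

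The deposited gene counts summed to 14255456 to 31913428 per library over the 14 libraries. Levels are given as CPM, counts scaled to a library of 1000000. On the first principal component of log2 CPM, which held 68.7% of the variance, remote libraries lay between -49.7 and -22.7 and 6 of the infarct libraries between 2.55 and 96.9. The library labelled infarct of mouse 9179 lay at -59.2, beyond every remote library, and that of mouse 9172 at 2.55 was the next closest to them. Cardiomyocyte contractile genes took 11.3% of the counts in that 9179 library, 4.27% to 9.67% in the other infarct libraries and 9.33% to 11.9% in the remote libraries. The labels of that mouse's remote library conflict, with CKD in the title and control as the treatment. Transcripts of atrial muscle were uneven as well. Myl7, the atrial regulatory light chain, reached 199.98 CPM in the 9179 infarct library and 136, 337 and 148 CPM in the remote libraries of mice 9172, 9174 and 9176, but at most 10.7 CPM in the other 10. Its part in the results was not tested. Counts of Apoe were low but present in this ApoE-/- strain, at 11.1 to 31.4 CPM in infarct tissue (median 15.05), against 12.2 to 24.7 CPM in remote myocardium (median 19.1). The groups overlapped and the gene was not called (log2 fold change -0.053 ± 0.17 (SE), adjusted p = 0.814, and -0.18 without mouse 9179), and whether these reads lie outside the altered part of the gene was not tested. Because mouse 9179 stands apart, gene fold changes and list counts are given for all 7 pairs and for the 6 pairs without it, written as 6 pairs, and where a gene has 2 log2 fold changes in brackets, the first is from 7 pairs and the second from 6.

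Nearly as many genes were lower as were higher in the infarct. Of 13842 genes tested with edgeR, with mouse as a block and a Benjamini-Hochberg adjusted p under 0.05, 3311 (23.9% of the genes tested) were higher and 2970 (21.5%) lower, together 45.4%. Changes of at least 2-fold were mostly upward, with 1332 genes higher (9.62%) and 515 lower (3.72%). The median log2 fold change over all genes was -0.00079, a value that follows from TMM scaling, which sets most genes near 0. The balance of higher and lower calls rests on the same scaling. Its factors were 0.866 to 0.964 in remote libraries. They were 0.857 in the infarct library of mouse 9179 and 0.97 to 1.21 in the other infarct libraries. Without mouse 9179, 4027 genes were higher (28.8% of 13966) and 3848 lower (27.6%), together 56.4%, with 1678 higher (12.0%) and 880 lower (6.3%) at 2-fold or more. Of the calls from 7 pairs, 98.5% of the higher and 98.1% of the lower genes were called again without mouse 9179. Leaving out mouse 9174 gave 3894 called genes and leaving out mouse 9178 gave 3965, against 6281 with all 7 pairs. Counts of listed genes below are to be read against these shares of all genes. The lists were chosen with earlier results of these data known, so their counts describe the lists and are not a test. Where fewer genes were tested than listed, genes of low counts can pass the filter through the region where they are high. The part of this in the list counts was not tested.

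The direction of change in each mouse was also read for genes that the other 6 mice had called at 2-fold or more. In mice 9174 to 9178, between 97.4% and 99.6% of the genes higher in the other mice were also higher in the mouse left out, and 96.3% to 100% of the lower genes were lower. In mouse 9172 the shares were 87.5% and 82.4%. In mouse 9179 they were 48.6% and 35.2%, so that its infarct library did not differ from its remote library in the way of the other hearts.

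**Figure D1:**
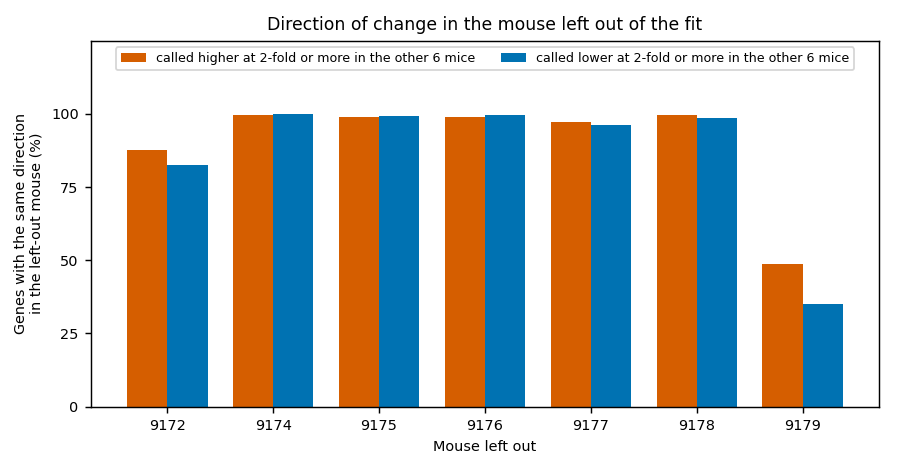
Share of genes called at 2-fold or more in 6 mice whose log2 CPM difference between infarct and remote tissue had the same sign in the mouse left out, on a linear axis in percent, for higher (orange) and lower (blue) genes. Mice 9174 to 9178 stand at 96.3% or more, mouse 9172 at 87.5% and 82.4%, and mouse 9179 at 48.6% and 35.2%.

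**Figure D2:**
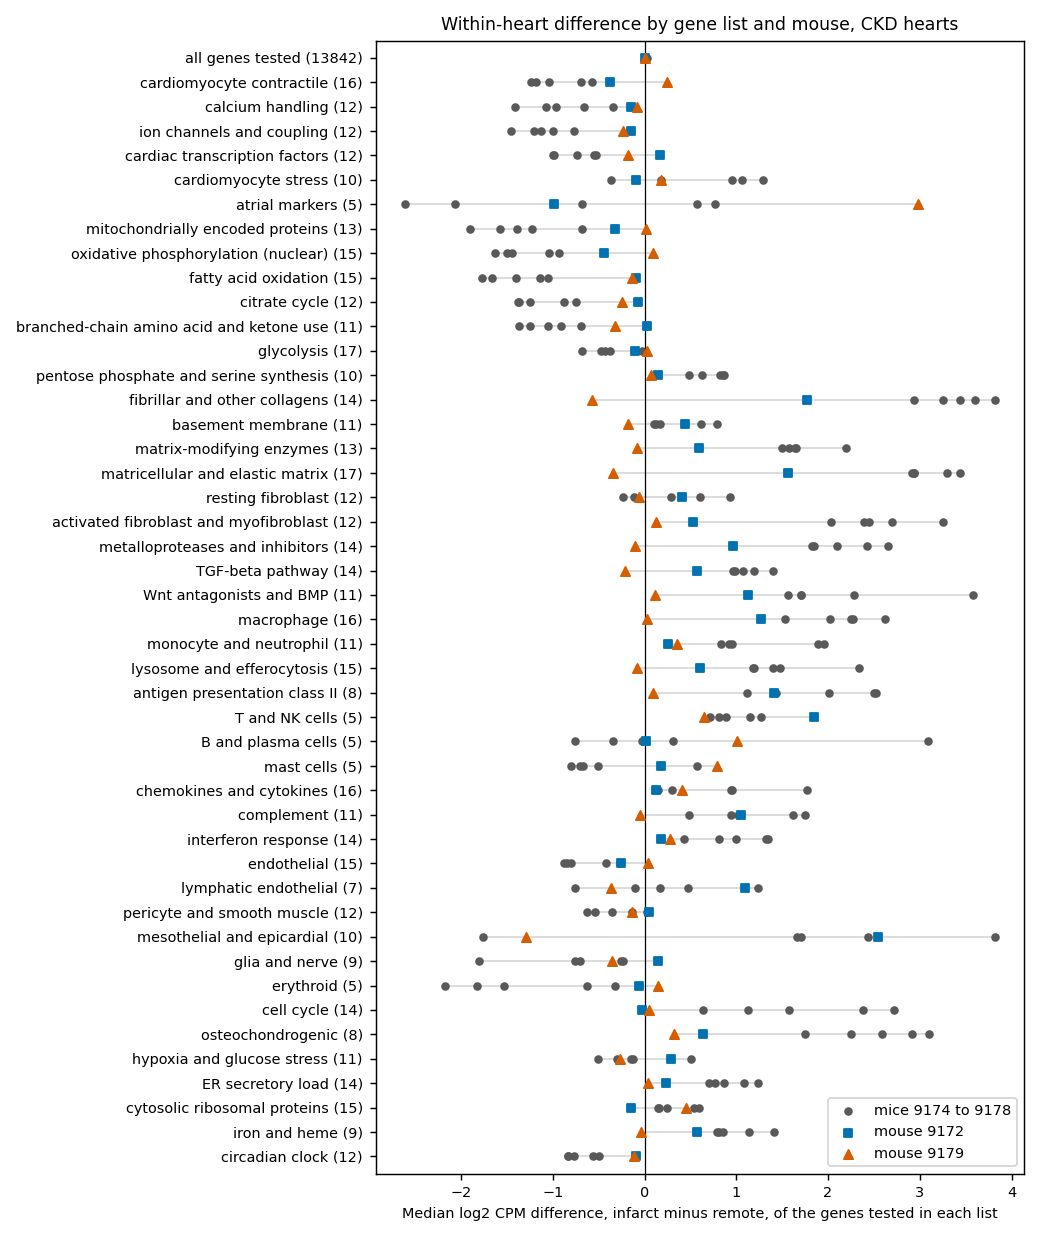
Median log2 CPM difference, infarct minus remote, of the tested genes of each list in each mouse, with the number of genes in brackets. Grey circles are mice 9174 to 9178, the blue square is mouse 9172 and the orange triangle is mouse 9179, and mice 9174 to 9178 lie left of 0 for contractile, calcium and oxidative lists and right of 0 for collagen, matricellular and lysosome lists.

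The listed sarcomere genes of the cardiomyocyte were lower in the infarct or did not pass the test. Among 16 sarcomere genes, 10 fell and 0 rose, with a median log2 fold change of -0.64, and without mouse 9179 15 fell with a median of -0.82. Tnni3, cardiac troponin I of the thin filament, had 1051 to 9748 CPM in infarct tissue (median 1760.0), against 5767 to 8425 CPM in remote myocardium (median 6267). The 9179 library was above every remote library, and without that mouse the regions did not overlap (log2 fold change -1.47 ± 0.37 (SE), adjusted p = 0.0128, and -1.78 without mouse 9179). Tcap, the telethonin that caps titin at the Z-disc, had 382 to 3446 CPM in infarct tissue (median 622), against 1966 to 3532 CPM in remote myocardium (median 2871). It fell as well, and its regions overlapped only through mouse 9179 (log2 fold change -1.50 ± 0.39 (SE), adjusted p = 0.0142, and -1.84 without mouse 9179). Myh6, the fast myosin heavy chain of the adult mouse ventricle, had 8499.5 to 28947 CPM in infarct tissue (median 14706), against 25061 to 32203 CPM in remote myocardium (median 31027). Its infarct and remote libraries overlapped only with mouse 9179 included (log2 fold change -1.09 ± 0.30 (SE), adjusted p = 0.0183, and -1.27 without mouse 9179), and the call was lost when any 1 of mice 9174, 9175, 9176, 9177 and 9178 was left out (highest adjusted p 0.0584). Actc1, cardiac alpha-actin, did not pass (-0.41 and -0.45, adjusted p = 0.164). The number of sarcomere genes called lower was 3 without mouse 9175, 4 without any 1 of mice 9174, 9176 and 9178 and 6 without mouse 9177.

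Calcium handling and ion channel genes showed the same picture. Of 12 calcium handling genes 10 fell (median -0.71, and -0.81 with 10 called without mouse 9179). Hrc, the histidine-rich calcium binding protein of the sarcoplasmic reticulum, had 266 to 1731 CPM in infarct tissue (median 367), against 1099 to 1598 CPM in remote myocardium (median 1371). Only the 9179 library reached the remote range (log2 fold change -1.39 ± 0.33 (SE), adjusted p = 0.011, and -1.66 without mouse 9179). Pln, phospholamban, the inhibitor of the calcium pump, was lower in 7 of 7 mice (-1.14 and -1.33), and Atp2a2, the pump itself, in 6 of 7 (-0.93 and -1.02, call lost without any 1 of mice 9174, 9175, 9177 and 9178). Jph2, which ties the sarcoplasmic reticulum to the T-tubule, fell by 0.76 on the log2 scale in 7 pairs and by 0.85 in 6. Camk2d, the calmodulin kinase of the heart, was not called (-0.08 and -0.11, adjusted p = 0.57). The number of calcium handling genes called lower was 4 without mouse 9178 and 5 without any 1 of mice 9174 and 9175. Of 12 channel and coupling genes 8 fell (median -0.88, and 0 higher, 8 lower and a median of -0.95 with 6 pairs), a count that stayed between 7 and 8 when each mouse was left out. Hcn2, a pacemaker channel, had 9.29 to 17.4 CPM in infarct tissue (median 14.2), against 18.5 to 30.9 CPM in remote myocardium (median 24.2). The 7 infarct libraries lay below all 7 remote libraries (log2 fold change -0.83 ± 0.16 (SE), adjusted p = 0.00748, and -0.88 without mouse 9179). Genes whose libraries did not overlap in this way made up 1.08% of all genes tested on the lower side and 1.39% on the higher side, and 9.95% and 12.6% without mouse 9179. Kcnh2 and Kcnip2, subunits of repolarizing potassium currents, fell (Kcnh2 -1.06 and -1.23, and Kcnip2 -1.24 and -1.42), whereas Gja1, the ventricular gap junction protein connexin 43, was not called (0.012 and 0.048, adjusted p = 0.954).

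Among 12 cardiac transcription factors 8 fell and 0 rose (median -0.52, and 1 higher, 9 lower and a median of -0.58 with 6 pairs), and the lower count was 5 without any 1 of mice 9174, 9175 and 9178. The largest decreases of called genes on this list were in Ppargc1a, the coactivator that drives mitochondrial biogenesis (-1.20 and -1.40), and Ppara, the receptor that turns on fatty acid oxidation (-1.17 and -1.31). Ppargc1a had 13.2 to 84.2 CPM in infarct tissue (median 18.3), against 47.9 to 88.9 CPM in remote myocardium (median 55.4). Both regions overlapped only through mouse 9179. Gata4, a factor of heart development, did not pass (-0.23 and -0.19, adjusted p = 0.22). Tbx20 passed only without mouse 9179, and in the other direction (0.42 and 0.55, adjusted p = 0.0681 in 7 pairs and 0.00662 in 6).

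Some stress genes of the cardiomyocyte were higher in the infarct, and others were not called. The median log2 CPM difference of this list was below 0 in mice 9172 (-0.093) and 9175 (-0.37) and above 0 in the others. Of 10 genes 4 rose and 0 fell (median 0.54, and 5 higher, 0 lower and a median of 0.55 with 6 pairs). Nppa, atrial natriuretic peptide, had 280.5 to 3999.8 CPM in infarct tissue (median 1059), against 34.9 to 313 CPM in remote myocardium (median 90.1). It was higher in the infarct in 7 of 7 hearts although the ranges overlapped (log2 fold change 3.22 ± 0.45 (SE), adjusted p = 0.00597, and 3.23 without mouse 9179). The atrial transcript Myl7 was uneven between these libraries, with 199.98 CPM in the infarct and 2.15 CPM in the remote library of mouse 9179. The part of atrial muscle in the Nppa values was not tested. Ankrd1, a stretch-responsive titin partner, had 553 to 4069.9 CPM in infarct tissue (median 2803), against 399 to 1346 CPM in remote myocardium (median 1152). It too was higher in 7 of 7 hearts (log2 fold change 1.06 ± 0.21 (SE), adjusted p = 0.00761, and 1.15 without mouse 9179). Nppb, brain natriuretic peptide, had 144 to 1195 CPM in infarct tissue (median 567.997), against 97.7 to 651 CPM in remote myocardium (median 433). Its ranges overlapped and it was higher in 4 of 7 hearts (log2 fold change 0.46 ± 0.27 (SE), adjusted p = 0.191, and 0.43 without mouse 9179). Myh7, the slow myosin heavy chain of the fetal mouse ventricle, had 428 to 2083 CPM in infarct tissue (median 933), against 644 to 994 CPM in remote myocardium (median 898), and was higher in 3 of 7 (log2 fold change 0.089 ± 0.19 (SE), adjusted p = 0.717, and 0.08 without mouse 9179). Rcan1, a calcineurin regulator and target, and Xirp2, an intercalated disc protein, passed with 7 pairs (Rcan1 0.77 and 0.89, and Xirp2 0.63 and 0.67). Their calls were lost without any 1 of mice 9174, 9175, 9176, 9177 and 9178 for Rcan1 and 9174, 9176, 9177 and 9178 for Xirp2. The number of stress genes called higher was 2 of 10 without any 1 of mice 9174, 9176, 9177 and 9178. Of all genes tested, 23.9% were called higher with 7 pairs. Of the 7 markers of atrial muscle, 5 were tested, 2 rose (Myl1 1.23 and 1.21, and Dkk3 2.55 and 2.44, neither confined to atria) and 1 fell (Stard10, -1.20 and -1.57, a call lost without any 1 of mice 9172, 9174, 9175, 9176, 9177 and 9178), while Myl7 was uneven as described above. The list had 2 higher, 2 lower and a median of -1.57 with 6 pairs.

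Ankrd1 rose and Nppb was not called, and their promoters are shown because both hold the same motif of cardiac muscle genes. The M-CAT core, searched as GGAATG on both strands, is bound by TEAD factors in cardiac muscle. In RefSeq promoters of build GRCm38.p6, from 250 bases before to 50 after the start, it was in 5 of the 9 stress genes with an entry, among them the uncalled Myh7, Acta1 and Hspb7, and in 14.7% of all 32851 promoters. A gene counted if any of its promoters held the core (1 of 2 for Myh7), whereas the share is of single promoters. Capitals mark the core or its reverse complement. The counts themselves were made on GRCm39.
Ankrd1 (chr19:36119795-36120094, minus strand): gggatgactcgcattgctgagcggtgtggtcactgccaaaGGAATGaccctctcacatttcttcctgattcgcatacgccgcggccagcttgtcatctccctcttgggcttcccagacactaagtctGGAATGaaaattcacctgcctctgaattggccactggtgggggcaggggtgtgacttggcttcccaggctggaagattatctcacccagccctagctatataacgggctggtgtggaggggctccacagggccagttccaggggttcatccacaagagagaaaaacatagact
Nppb (chr4:147985650-147985949, plus strand): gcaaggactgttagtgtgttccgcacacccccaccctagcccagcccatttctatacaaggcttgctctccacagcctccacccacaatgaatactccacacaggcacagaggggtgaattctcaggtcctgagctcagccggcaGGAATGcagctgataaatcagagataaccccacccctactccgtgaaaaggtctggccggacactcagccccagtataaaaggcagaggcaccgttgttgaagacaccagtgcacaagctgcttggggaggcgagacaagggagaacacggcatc
A match is a description of the letters and not evidence of binding in these hearts.

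Genes of oxidative metabolism were lower almost throughout. All 15 fatty acid oxidation genes, all 15 nuclear respiratory chain genes, 11 of 12 citrate cycle genes and 10 of 11 genes of branched-chain amino acid and ketone use fell, with medians of -1.02, -0.97, -0.85 and -0.75. Without mouse 9179 the medians were -1.15, -1.17, -0.96 and -0.87, with 15, 15, 11 and 10 genes lower. Cpt1b, the muscle form of the enzyme that admits fatty acids to mitochondria, had 1.34 to 7.04 CPM in infarct tissue (median 2.36), against 6.45 to 10.8 CPM in remote myocardium (median 8.88). It was lower in 7 of 7 hearts, with ranges that overlapped (log2 fold change -1.48 ± 0.26 (SE), adjusted p = 0.00641, and -1.67 without mouse 9179). Acadl, long-chain acyl-CoA dehydrogenase, had 377 to 875 CPM in infarct tissue (median 572), against 903 to 1061 CPM in remote myocardium (median 969), with no overlap of the 7 and 7 libraries (log2 fold change -0.83 ± 0.20 (SE), adjusted p = 0.0107, and -0.96 without mouse 9179). Fh1, fumarase of the citrate cycle, was likewise separated (log2 fold change -0.94 ± 0.20 (SE), adjusted p = 0.00819, and -1.08 without mouse 9179), as was Ndufa9 of complex I (log2 fold change -0.95 ± 0.21 (SE), adjusted p = 0.00872, and -1.10 without mouse 9179). Hadh, Eci1 and Acadvl, further enzymes of beta-oxidation, fell by more than the list's median (Hadh -1.24 and -1.39, Eci1 -1.39 and -1.64, and Acadvl -1.26 and -1.32). The exceptions were Pdha1 of pyruvate dehydrogenase (-0.56 and -0.51, adjusted p = 0.0522) and Bdh1 of ketone use (-0.63 and -0.61, adjusted p = 0.0651), which missed the threshold.

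The transcripts of the 13 proteins encoded by mitochondrial DNA were all lower (median -1.02, and -1.20 with 13 called without mouse 9179). They are among the most abundant transcripts of the heart. COX1, the catalytic subunit of cytochrome oxidase, had 24256 to 70431 CPM in infarct tissue (median 31075), against 60398 to 87361 CPM in remote myocardium (median 79755). It was lower in 7 of 7 hearts, though the ranges overlapped (log2 fold change -1.01 ± 0.32 (SE), adjusted p = 0.0305, and -1.14 without mouse 9179), and the call was lost without any 1 of mice 9174, 9175, 9176, 9177 and 9178. ND5 of complex I fell by 1.06 in 7 pairs and by 1.18 in 6. The overlapping pairs ATP8 with ATP6 and ND4L with ND4 share bases, so reads at those junctions are uncertain. The number called was 4 without any 1 of mice 9174, 9175, 9176 and 9178 and 8 without mouse 9177, while the nuclear respiratory chain list stayed between 12 and 15.

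Of 17 glycolysis genes 3 rose, a share below the 23.9% of all genes, and 6 fell (median -0.28, and 3 higher, 9 lower and a median of -0.39 with 6 pairs). The number called higher was 0 without any 1 of mice 9174, 9175, 9176 and 9178. Slc2a4, the insulin-responsive glucose transporter GLUT4, had 134 to 416 CPM in infarct tissue (median 197), against 394 to 513 CPM in remote myocardium (median 446). It was lower in 7 of 7 hearts (log2 fold change -1.05 ± 0.23 (SE), adjusted p = 0.00876, and -1.20 without mouse 9179). Slc2a1, the widely expressed transporter GLUT1, had 18.3 to 54.3 CPM in infarct tissue (median 35.98), against 16.7 to 26.6 CPM in remote myocardium (median 21.7) and was higher in 5 of 7 (log2 fold change 0.62 ± 0.21 (SE), adjusted p = 0.0399, and 0.77 without mouse 9179), a call that was lost without any 1 of mice 9172, 9174, 9175, 9176 and 9178. Gapdh, of the lower part of glycolysis, did not pass (-0.27 and -0.33, adjusted p = 0.204). In the pentose phosphate and serine pathways 6 of 10 genes rose and 1 fell (median 0.58, and 6 higher, 1 lower and a median of 0.62 with 6 pairs), with the lower count at 0 without any 1 of mice 9174, 9175, 9176, 9177 and 9178. Pgd, phosphogluconate dehydrogenase of the NADPH-forming branch, had 48.2 to 154 CPM in infarct tissue (median 79.8), against 35.6 to 47.01 CPM in remote myocardium (median 43.3). The 7 infarct libraries lay above all remote libraries (log2 fold change 0.90 ± 0.15 (SE), adjusted p = 0.006, and 0.97 without mouse 9179). G6pdx, the entry enzyme of that branch, and Mthfd2, of mitochondrial one-carbon metabolism, rose (G6pdx 0.95 and 1.12, and Mthfd2 1.18 and 1.44).

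For 30 proteins a form prominent in heart muscle, here the muscle form, was set beside a related form of other tissues. The pairs were chosen by hand with earlier results of these data known, so counts over them describe the pairs and are not a test. Not every such form is confined to muscle. For lactate dehydrogenase the heart-type subunit Ldhb, found in other tissues too, counted as the muscle form. Ldha, which skeletal muscle makes, counted as the other (Ldhb -1.04 and -1.21, and Ldha -0.28 and -0.39). The muscle form fell in 23 pairs, rose in 1 (Des, desmin) and was not called in 6. The other form rose in 18, fell in 2 (Cox7a2 and Pygb) and was not called in 10. Medians were -0.93 for muscle forms and 0.51 for other forms, and the muscle form had the lower log2 fold change in 30 of 30 pairs. These include Flnc and Flna, neither called, and Des and its partner Vim, both called higher. Within hearts, the muscle form fell relative to its partner in 7 of 7 mice for 13 pairs and in 6 of 7 for 13. Without mouse 9179, 24 muscle forms were lower and 22 other forms higher. Of the 44 called genes in these pairs, 25 were called in each fit that left out 1 mouse. The number of muscle forms called lower was 13 without mouse 9174 or mouse 9178, and 14 without mouse 9175 or mouse 9176.

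Single pairs show the contrast. Ckm, muscle creatine kinase, fell and Ckb, the brain-type form, rose (Ckm -1.02 and -1.13, and Ckb 0.53 and 0.57). Pfkm and Pfkp, muscle and platelet phosphofructokinase, moved apart in the same way (Pfkm -0.92 and -1.06, and Pfkp 0.85 and 0.98), as did Eno3 and Eno1 of enolase (Eno3 -1.26 and -1.49, and Eno1 0.38 and 0.40). Rpl3l is the form of ribosomal protein L3 made in striated muscle. It had 54.4 to 511 CPM in infarct tissue (median 78.6), against 332 to 506 CPM in remote myocardium (median 409), and its libraries overlapped through mouse 9179 (log2 fold change -1.80 ± 0.42 (SE), adjusted p = 0.0106, and -2.15 without mouse 9179). Rpl3, the general form, had 339 to 717 CPM in infarct tissue (median 570.2), against 247 to 356 CPM in remote myocardium (median 327) (log2 fold change 0.76 ± 0.15 (SE), adjusted p = 0.00746, and 0.83 without mouse 9179). Among cytoskeletal pairs, Actn2 of the Z-disc fell and Actn1 of stress fibres rose (Actn2 -0.51 and -0.61, and Actn1 1.43 and 1.61), while Flnc and Flna, both filamins, were not called (Flnc 0.26 and 0.30, and Flna 0.42 and 0.49). The call of Eno1 was lost without any 1 of mice 9174, 9175, 9176, 9177 and 9178, and that of Actn2 without any 1 of mice 9174, 9175, 9176, 9177 and 9178.

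**Figure D3:**
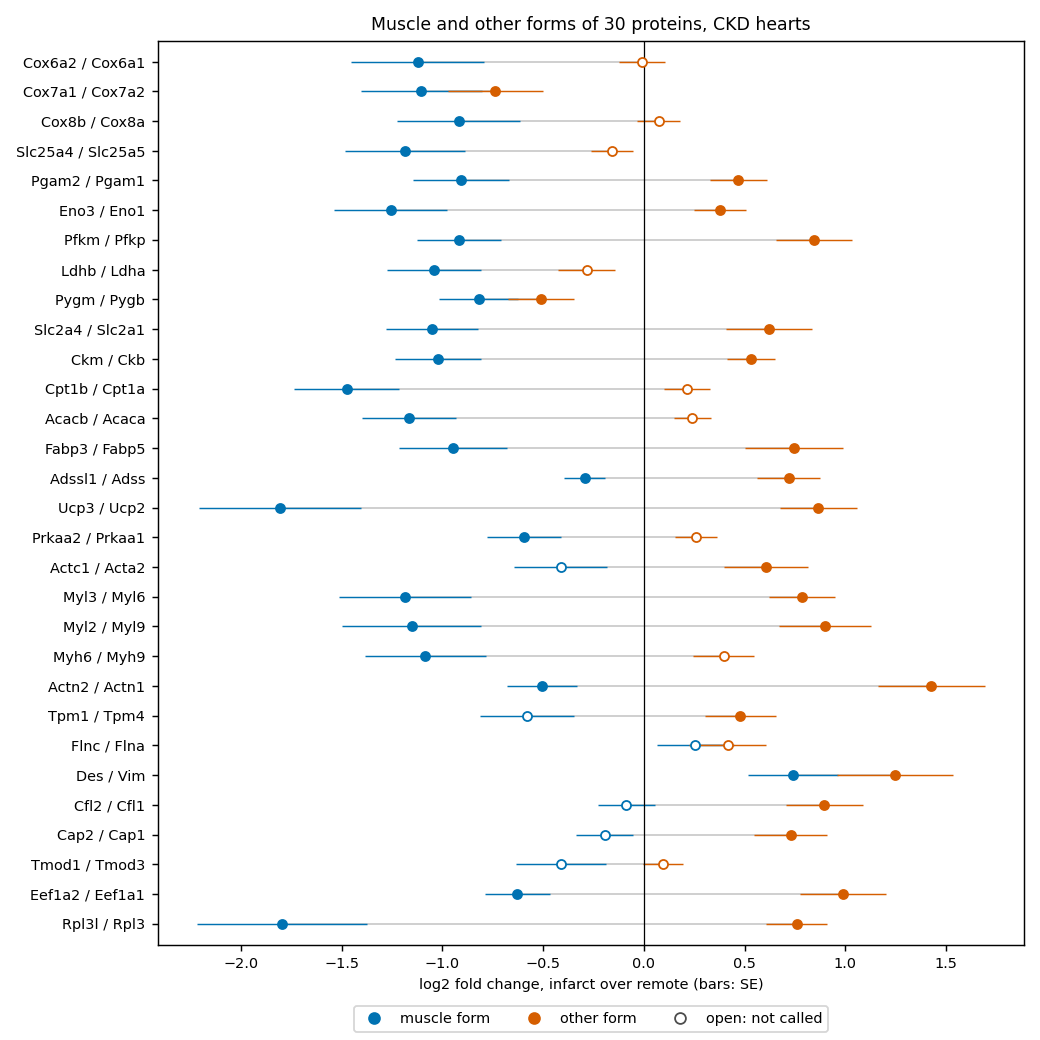
Log2 fold change of infarct over remote tissue with its standard error for the muscle form (blue) and the other form (orange) of 30 proteins, 7 pairs of libraries, with open circles for genes that were not called. Muscle forms lie left of their partners in 30 of 30 pairs, which were chosen with earlier results of these data known.

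Scar matrix genes were higher in the infarct. Of 15 collagen genes 14 were tested and 14 rose (median 2.71, range 0.97 to 4.17), and without mouse 9179 15 rose with a median of 3.16. Col1a1, the main chain of fibrillar collagen I, had 74.6 to 11516 CPM in infarct tissue (median 4698), against 106 to 316 CPM in remote myocardium (median 189.8). The infarct library of mouse 9179 had 74.6 CPM, less than any remote library, and the other 6 lay above all remote libraries (log2 fold change 4.17 ± 0.82 (SE), adjusted p = 0.00729, and 4.66 without mouse 9179). Col3a1, of the collagen of young scar, had 111 to 9964 CPM in infarct tissue (median 4856), against 179 to 552 CPM in remote myocardium (median 259.6). The same single library overlapped the remote range (log2 fold change 3.72 ± 0.75 (SE), adjusted p = 0.00758, and 4.19 without mouse 9179). Col12a1, a fibril-associated collagen, rose further than the median of the list (3.86 and 4.31), and Col11a1, not tested with 7 pairs, had 0 to 76.3 CPM in infarct tissue (median 7.44), against 0 to 0.407 CPM in remote myocardium (median 0.119). Of 11 basement membrane genes 5 rose (median 0.27, and 5 higher, 1 lower and a median of 0.26 with 6 pairs), among them Col4a1 and Lamb1 (Col4a1 0.91 and 1.10, and Lamb1 0.49 and 0.59), and the higher count was 2 without mouse 9177 and 3 without mouse 9174. Lama2, the muscle laminin chain, was not called (0.11 and 0.14, adjusted p = 0.466).

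All 17 matricellular and elastic matrix genes rose, with a median of 2.52 (2.92 without mouse 9179), and all 17 were called whichever mouse was left out. Postn, periostin of activated fibroblasts, had 17.8 to 1337 CPM in infarct tissue (median 900.5), against 10.3 to 85.5 CPM in remote myocardium (median 27.2). Without mouse 9179 the ranges did not overlap (log2 fold change 4.36 ± 0.90 (SE), adjusted p = 0.008, and 4.88 without mouse 9179). Cthrc1, a secreted glycoprotein of scar fibroblasts, had 0.164 to 164 CPM in infarct tissue (median 98.4), against 0.130024 to 2.39 CPM in remote myocardium (median 0.856), with the 9179 library at the low end (log2 fold change 6.31 ± 1.12 (SE), adjusted p = 0.00644, and 7.16 without mouse 9179). Spp1, osteopontin, made by macrophages among other cells, had 0.328 to 4518 CPM in infarct tissue (median 96.3), against 0.553 to 2.85 CPM in remote myocardium (median 1.28). The infarct library of mouse 9175 was the highest and that of mouse 9179 the lowest of all 14 (log2 fold change 6.23 ± 1.39 (SE), adjusted p = 0.00941, and 7.15 without mouse 9179), and without mouse 9175 the log2 fold change was 5.42. Dcn, decorin, which fibroblasts also make in uninjured heart, had 500.1 to 1048 CPM in infarct tissue (median 674), against 364 to 474 CPM in remote myocardium (median 427), so that every infarct library was above every remote library (log2 fold change 0.75 ± 0.18 (SE), adjusted p = 0.0109, and 0.84 without mouse 9179). Of 13 enzymes that modify collagen 11 rose (median 1.29, and 12 higher, 0 lower and a median of 1.49 with 6 pairs). Lox, the lysyl oxidase that cross-links collagen, had 2.46 to 265 CPM in infarct tissue (median 177), against 3.15 to 9.49 CPM in remote myocardium (median 3.88). The libraries overlapped only through mouse 9179 (log2 fold change 4.52 ± 0.89 (SE), adjusted p = 0.00736, and 5.07 without mouse 9179). Plod2, lysyl hydroxylase of telopeptides, was separated in 7 and 7 libraries (log2 fold change 1.44 ± 0.25 (SE), adjusted p = 0.00628, and 1.62 without mouse 9179). P4ha3, a prolyl hydroxylase subunit, rose (5.67 and 6.29), whereas P4ha2, another such subunit, did not pass (0.24 and 0.26) and Plod1, a lysyl hydroxylase, passed only without mouse 9179 (0.22 and 0.27, adjusted p = 0.0631 in 7 pairs and 0.0189 in 6).

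**Figure D4:**
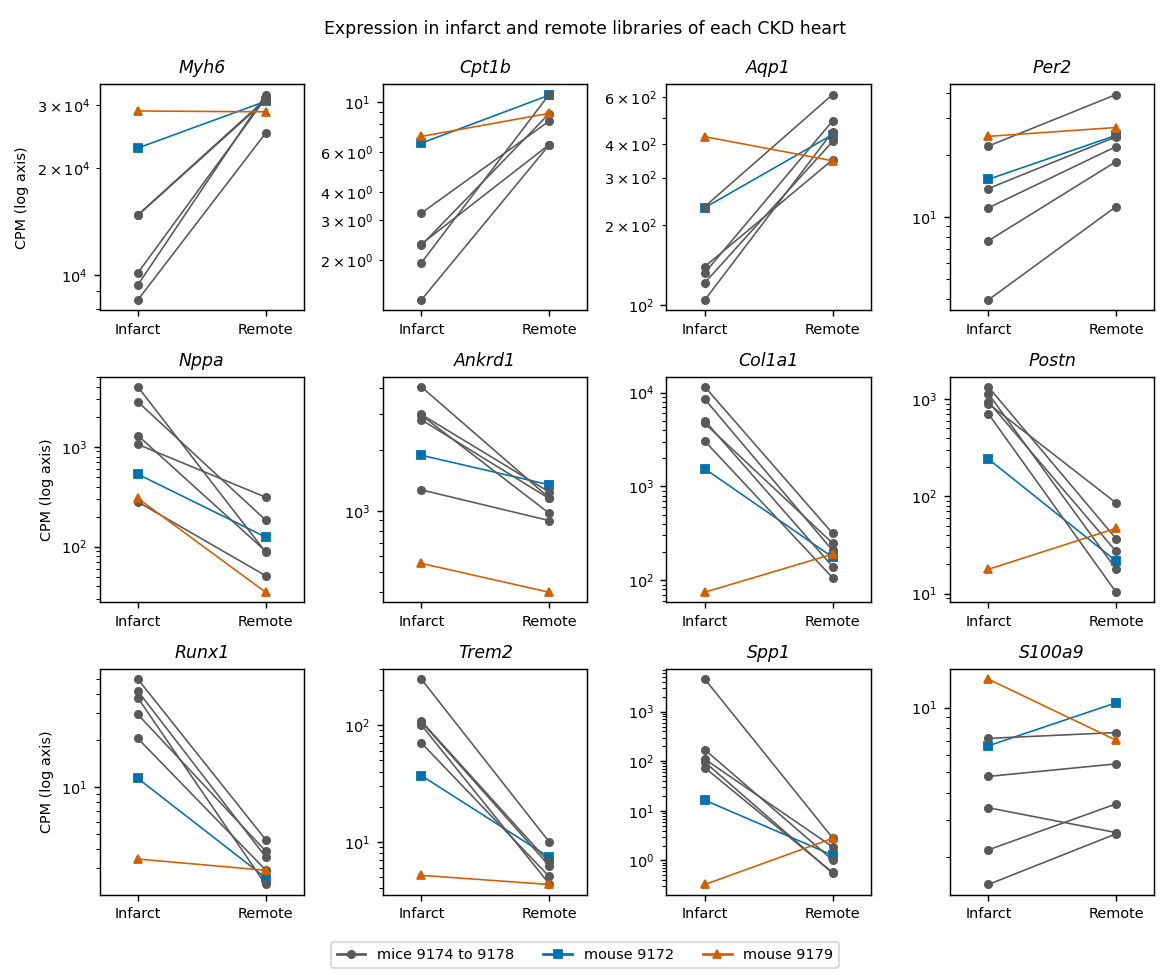
CPM on log axes in the infarct (left) and remote (right) library of each of 7 CKD hearts for 12 genes, with lines joining the libraries of a mouse. Mouse 9179 (orange) runs flat or against the others for Col1a1, Myh6 and Trem2, Nppa is higher in the infarct of 7 of 7 hearts, and S100a9 overlaps between regions.

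Most genes of activated fibroblasts rose, and genes of resting fibroblasts were called in both directions. Of 12 genes of activation 11 rose and 1 fell (median 1.90, and 11 higher, 1 lower and a median of 2.18 with 6 pairs). Of 12 genes of the resting state 5 rose and 3 fell (median 0.27, and 5 higher, 3 lower and a median of 0.28 with 6 pairs), with the lower count at 1 without any 1 of mice 9174, 9175, 9176 and 9178. The difference between these lists was not tested. Runx1, a transcription factor of injured heart, had 3.44 to 49.6 CPM in infarct tissue (median 29.4), against 2.36 to 4.59 CPM in remote myocardium (median 2.93). It was higher in 7 of 7 hearts and overlapped only through mouse 9179 (log2 fold change 2.83 ± 0.38 (SE), adjusted p = 0.00597, and 3.15 without mouse 9179). Cilp and Comp, matrix proteins of late scar and cartilage, rose (Cilp 3.23 and 3.62, and Comp 3.42 and 3.79). Lrrc15, a marker of TGF-beta-driven fibroblasts, was the exception. It had 8.56 to 20.5 CPM in infarct tissue (median 11.9), against 16.7 to 30.5 CPM in remote myocardium (median 25.02), lower in 7 of 7 hearts (log2 fold change -0.97 ± 0.22 (SE), adjusted p = 0.0101, and -1.13 without mouse 9179). Acta2, smooth muscle actin, rose (0.61 and 0.75), and its call was lost without any 1 of mice 9174, 9175, 9176, 9177 and 9178. Among resting genes Pdgfra and Tcf21 rose (Pdgfra 0.77 and 0.95, and Tcf21 1.005 and 1.17) and Hsd11b1, which regenerates active glucocorticoid, fell without overlap (log2 fold change -1.20 ± 0.25 (SE), adjusted p = 0.00825, and -1.36 without mouse 9179).

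Signals and proteases that act on this matrix were also higher. Of 14 TGF-beta pathway genes 10 rose and 1 fell (Tgfbr3, a co-receptor, -0.33 and -0.33, lost without any 1 of mice 9174, 9175, 9176, 9177 and 9178), with a median of 0.84, and 11 higher, 1 lower and a median of 1.03 with 6 pairs. The ligands Tgfb3 and Tgfb2 rose by more than Tgfb1 (Tgfb3 2.15 and 2.44, Tgfb2 1.57 and 1.77, and Tgfb1 0.65 and 0.69), although these differences were not tested. Tgfb3 had 20.8 to 175 CPM in infarct tissue (median 106), against 17.1 to 22.1 CPM in remote myocardium (median 19.9), higher in 7 of 7 hearts (log2 fold change 2.15 ± 0.33 (SE), adjusted p = 0.00597, and 2.44 without mouse 9179). The receptor Tgfbr1 rose (1.33 and 1.54), and the inhibitor Smad7 was not called (-0.33 and -0.29, adjusted p = 0.0753). Of 14 Wnt antagonists and BMP genes 11 were tested, 8 rose and 1 fell (Bmp6, -0.81 and -0.85), with a median of 2.19, and 8 higher, 2 lower and a median of 2.30 with 6 pairs. Without mice 9172 and 9179, 13 were tested, with 10 higher and 2 lower, so the genes covered depend on the filter. Sfrp2, a secreted Wnt modulator, had 2.95 to 289 CPM in infarct tissue (median 109), against 1.39 to 9.66 CPM in remote myocardium (median 3.87) (log2 fold change 4.95 ± 0.90 (SE), adjusted p = 0.00662, and 5.51 without mouse 9179). Only the 9179 infarct library lay in the remote range. Of 15 metalloproteases and inhibitors 9 rose and 3 fell (median 1.78, and 9 higher, 3 lower and a median of 2.09 with 6 pairs). Mmp14, the membrane metalloprotease that activates Mmp2, rose, as did Mmp2 itself and the macrophage elastase Mmp12 (Mmp14 2.76 and 3.13, Mmp2 1.87 and 2.15, and Mmp12 4.59 and 4.95, the last at 3.83 without mouse 9175). The inhibitors split. Timp1 had 6.14 to 228 CPM in infarct tissue (median 137), against 3.64 to 13.1 CPM in remote myocardium (median 7.96) and rose (log2 fold change 3.69 ± 0.60 (SE), adjusted p = 0.00597, and 4.13 without mouse 9179). Timp4, an inhibitor made in heart muscle, had 1.95 to 41.1 CPM in infarct tissue (median 5.66), against 22.1 to 56.7 CPM in remote myocardium (median 35.4) and fell (log2 fold change -2.32 ± 0.46 (SE), adjusted p = 0.00746, and -2.72 without mouse 9179). For both, mouse 9179 alone brought the regions into overlap.

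Genes of cartilage and bone rose in part. Of 12 listed, 8 were tested and 6 rose (median 2.14, and 6 higher, 0 lower and a median of 2.40 with 6 pairs). Sox9, the chondrocyte transcription factor, had 7.62 to 58.0026 CPM in infarct tissue (median 27.9), against 3.71 to 8.19 CPM in remote myocardium (median 6.45), higher in 7 of 7 hearts (log2 fold change 2.04 ± 0.33 (SE), adjusted p = 0.00597, and 2.26 without mouse 9179). Mgp, matrix Gla protein, an inhibitor of calcification, was separated in all libraries (log2 fold change 1.40 ± 0.23 (SE), adjusted p = 0.00597, and 1.55 without mouse 9179). Ibsp, a bone matrix protein, had 0 CPM in all 14 libraries, and Sp7, a transcription factor of osteoblasts, at most 0.229 CPM. Secretory pathway genes of the endoplasmic reticulum rose in 12 of 14 cases (median 0.70, and 12 higher, 0 lower and a median of 0.80 with 6 pairs), among them Kdelr3, which returns proteins to the reticulum, and Creb3l1, a transcription factor of collagen-secreting cells (Kdelr3 1.84 and 2.04, and Creb3l1 1.43 and 1.68). 

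Macrophage genes were higher, with exceptions among genes of resident macrophages. Of 16 listed 12 rose and 2 fell (median 1.70, and 12 higher, 3 lower and a median of 1.91 with 6 pairs). The lower count was 0 without any 1 of mice 9175, 9176 and 9178 and 1 without any 1 of mice 9172 and 9174. Their summed share of counts was 0.0416% to 0.676% in infarct and 0.0331% to 0.0633% in remote libraries. Trem2, a lipid-sensing receptor of phagocytes, had 5.16 to 247 CPM in infarct tissue (median 100.2), against 4.31 to 10.01 CPM in remote myocardium (median 6.24). It was higher in 7 of 7 hearts (log2 fold change 3.52 ± 0.50 (SE), adjusted p = 0.00597, and 3.91 without mouse 9179). Gpnmb, a glycoprotein of lipid-laden macrophages, had 1.802 to 1868 CPM in infarct tissue (median 162), against 1.66 to 5.099 CPM in remote myocardium (median 3.41) (log2 fold change 5.33 ± 1.07 (SE), adjusted p = 0.00762, and 5.98 without mouse 9179, and 4.74 without mouse 9175). Mouse 9179 alone overlapped the remote range. Adgre1 and Csf1r, general macrophage receptors, rose (Adgre1 2.51 and 2.87, and Csf1r 1.46 and 1.66). Timd4 and Cd163, of resident macrophages, fell (Timd4 -1.42 and -1.79, and Cd163 -0.82 and -0.94), with both calls lost without some mice (9172, 9174, 9175, 9176 and 9178 for Timd4 and 9174, 9175, 9176 and 9178 for Cd163), and Folr2 and Lyve1, of the same cells, were not called with 7 pairs (Folr2 0.20 and 0.27, and Lyve1 -0.41 and -0.52, Lyve1 with an adjusted p of 0.0238 in 6).

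All 15 lysosome and efferocytosis genes rose (median 1.16, and 15 higher, 0 lower and a median of 1.31 with 6 pairs). Hexa, a lysosomal hexosaminidase, had 92.9 to 409 CPM in infarct tissue (median 205), against 72.03 to 90.4 CPM in remote myocardium (median 78.7), with no overlap between the regions (log2 fold change 1.26 ± 0.22 (SE), adjusted p = 0.00645, and 1.41 without mouse 9179). Npc2, a lysosomal cholesterol carrier, had 113 to 555 CPM in infarct tissue (median 298), against 94.7 to 106 CPM in remote myocardium (median 99.1), again without overlap (log2 fold change 1.39 ± 0.25 (SE), adjusted p = 0.00645, and 1.58 without mouse 9179). Mertk and Axl, receptors for dying cells, rose (Mertk 0.99 and 1.13, and Axl 0.63 and 0.74). All 8 class II presentation genes rose (median 1.62, and 1.84 with 6 pairs), in each fit that left out a mouse. H2-Aa, a class II chain, had 51.3 to 358 CPM in infarct tissue (median 159), against 20.2 to 77.3 CPM in remote myocardium (median 45.4) and was higher in 7 of 7 hearts (log2 fold change 1.82 ± 0.33 (SE), adjusted p = 0.00662, and 2.10 without mouse 9179). Of 12 complement genes 11 were tested and 9 rose (median 0.88, and 10 higher, 0 lower and a median of 1.03 with 6 pairs), led by the receptor C3ar1 (2.65 and 2.999), while C3 did not pass with 7 pairs (0.65 and 0.82, adjusted p = 0.0596 in 7 pairs and 0.0138 in 6). Of 11 iron and heme genes 9 were tested, 6 rose and 1 fell (median 0.81, and 6 higher, 2 lower and a median of 1.02 with 6 pairs). Hmox1, which degrades heme, had 7.21 to 135 CPM in infarct tissue (median 71.3), against 8.73 to 19.2 CPM in remote myocardium (median 12.2), and it too overlapped only through mouse 9179 (log2 fold change 2.17 ± 0.39 (SE), adjusted p = 0.00645, and 2.49 without mouse 9179). Tfrc, the transferrin receptor for iron uptake, had 10.4 to 74.2 CPM in infarct tissue (median 26.5), against 40.1 to 109 CPM in remote myocardium (median 74.7). It was the gene that fell with 7 pairs, lower in 7 of 7 hearts (log2 fold change -1.35 ± 0.29 (SE), adjusted p = 0.00854, and -1.55 without mouse 9179). Fth1, ferritin heavy chain, was not called with 7 pairs (adjusted p = 0.2, and 0.0475 in 6, log2 fold changes -0.28 and -0.40), and Ftl1, the light chain, rose (1.37 and 1.54).

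Several monocyte genes rose, and the neutrophil genes S100a8 and S100a9 were not called. Of 13 listed 11 were tested and 5 rose (median 0.78, and 5 higher, 0 lower and a median of 0.97 with 6 pairs). Ccr2, the receptor of recruited monocytes, had 3.28 to 23.4 CPM in infarct tissue (median 13.3), against 1.49 to 2.99 CPM in remote myocardium (median 1.83). All infarct libraries lay above all remote libraries (log2 fold change 2.65 ± 0.30 (SE), adjusted p = 0.00597, and 2.89 without mouse 9179). Itgam and Chil3 rose too (Itgam 2.21 and 2.47, and Chil3 2.78 and 3.12). S100a9, part of a neutrophil alarmin pair with S100a8, had 1.49 to 13.6 CPM in infarct tissue (median 4.77), against 2.57 to 10.5 CPM in remote myocardium (median 5.46). The ranges overlapped for both genes (log2 fold change -0.14 ± 0.22 (SE), adjusted p = 0.61, and -0.34 without mouse 9179, and for S100a8 log2 fold change 0.43 ± 0.27 (SE), adjusted p = 0.203, and 0.40 without mouse 9179). Of 15 T and NK cell genes 5 passed the filter on low counts and 1, Trac, was not analysed here. Of those tested 3 rose and 1 fell (median 1.39). With 6 pairs 8 genes were tested, with 6 higher, 1 lower and a median of 2.39, so these counts and medians cover different genes. Genes this low can pass the filter through the region where they are high, and the part of this in the counts was not tested. The number called higher was 1 without any 1 of mice 9175, 9176 and 9177 and 6 without mouse 9179. Cd8a rose (2.55 and 2.61) and Ctla4 fell (log2 fold change -1.72 ± 0.41 (SE), adjusted p = 0.0115, and -2.15 without mouse 9179), with Cd8a at a median of 1.301 CPM in the infarct, against 0.158 CPM in remote tissue, and Ctla4 at 0.749 CPM in the infarct, against 3.67 CPM in remote tissue. Of 8 B and plasma cell genes 5 were tested, 2 rose and 1 fell (median 0.28, 2 higher, 1 lower and a median of 0.36 with 6 pairs, and a median of -0.20 without mouse 9178). Cd22, an inhibitory receptor of B cells that is also present on some phagocytes, had 1.15 to 12.7 CPM in infarct tissue (median 8.79), against 0.233 to 1.44 CPM in remote myocardium (median 0.6299) and the smallest p of the higher genes that averaged 1 CPM or more (log2 fold change 3.23 ± 0.26 (SE), adjusted p = 0.00337, and 3.30 without mouse 9179). No mast cell gene passed with 7 pairs (5 of 8 tested, lowest adjusted p 0.0926, for the protease Mcpt4, which had 0.0169 without mouse 9179, -0.83 and -1.12), and 1 was called higher without mouse 9175.

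Of 19 chemokines and cytokines 16 were tested, 8 rose and 0 fell (median 0.67, and 8 higher, 0 lower and a median of 0.72 with 6 pairs). With 6 pairs 17 were tested, and without mice 9172 and 9179 18 were tested, with 11 higher and 0 lower. These counts cover different genes. Cxcl16, a membrane-bound chemokine, had 16.7 to 108 CPM in infarct tissue (median 90.1), against 13.4 to 21.2 CPM in remote myocardium (median 15.7) (log2 fold change 1.98 ± 0.32 (SE), adjusted p = 0.00597, and 2.23 without mouse 9179). Only mouse 9179 overlapped the remote range. Ccl8 and Cxcl10 rose (Ccl8 2.18 and 2.45, and Cxcl10 2.27 and 2.35), while Ccl2, the main ligand of Ccr2, and Cxcl12, a homing factor, were not called (Ccl2 0.70 and 0.72, and Cxcl12 -0.096 and -0.061). Interferon-stimulated genes rose in 10 of 14 cases (median 0.81, and 11 higher, 0 lower and a median of 0.87 with 6 pairs). Irf7, a master regulator of this response, was higher in 7 of 7 hearts (log2 fold change 1.22 ± 0.18 (SE), adjusted p = 0.00597, and 1.28 without mouse 9179), and Irf1 was not called (-0.063 and -0.11).

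**Figure D5:**
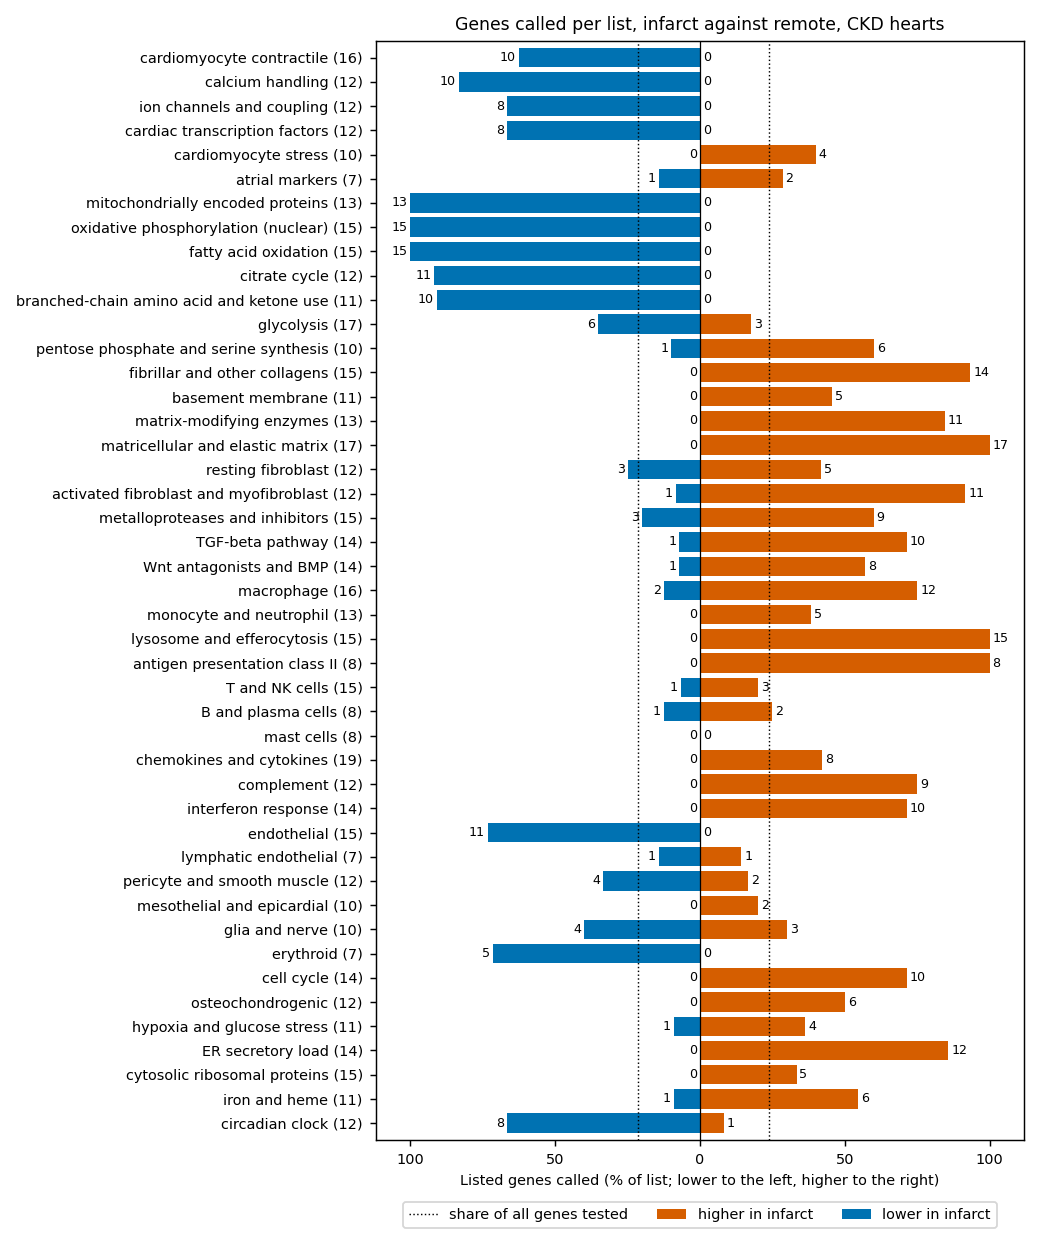
Listed genes called higher (orange, to the right) or lower (blue, to the left) in the infarct, in percent of each list with counts beside the bars and list sizes in brackets, 7 pairs. Dotted lines mark the 23.9% and 21.5% of all genes tested that were called higher and lower. The lists were chosen with earlier results of these data known, so bars beyond these lines are not a test. The list sizes include genes that were not tested, so bars of such lists are shorter than the share among their tested genes. For T and NK cells 3 genes were higher, of 15 listed and 5 tested.

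Most endothelial genes on the list were lower in the infarct. Of 15 endothelial genes 11 fell and 0 rose (median -0.47, and 0 higher, 12 lower and a median of -0.58 with 6 pairs), a count that was 7 without mouse 9178. Aqp1, the water channel of capillaries, had 105 to 427 CPM in infarct tissue (median 139), against 347 to 614 CPM in remote myocardium (median 435). Without mouse 9179 the regions did not overlap (log2 fold change -1.31 ± 0.26 (SE), adjusted p = 0.00763, and -1.57 without mouse 9179). Kdr, the main VEGF receptor, had 87.6 to 240.3 CPM in infarct tissue (median 131), against 236 to 333 CPM in remote myocardium (median 286), lower in 7 of 7 hearts (log2 fold change -0.98 ± 0.19 (SE), adjusted p = 0.00696, and -1.11 without mouse 9179). Car4 and Gpihbp1, capillary-surface proteins of carbon dioxide and lipid exchange, fell (Car4 -1.71 and -2.07, and Gpihbp1 -0.94 and -1.17). Pecam1, Cldn5 and Erg, found in most endothelium, were among the 4 listed genes not called with 7 pairs (Pecam1 -0.28 and -0.31, Cldn5 -0.17 and -0.26, and Erg -0.096 and -0.093). Pecam1 passed without mouse 9179 (adjusted p = 0.0391). The other 11 genes of the list fell, and whether capillary and general endothelial genes differ was not tested. Vegfa, the ligand of Kdr, fell (log2 fold change -0.97 ± 0.20 (SE), adjusted p = 0.00842, and -1.12 without mouse 9179). Of 11 hypoxia genes 1, Vegfa itself, fell and 4 rose (median -0.20, and 4 higher, 3 lower and a median of -0.13 with 6 pairs). Among those that rose were the lactate exporter Slc16a3 (1.91 and 2.20) and Hif1a (0.78 and 0.92), and the higher count was 2 without any 1 of mice 9175, 9176, 9177 and 9178.

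Of 12 pericyte and smooth muscle genes 2 rose (Pdgfrb 0.50 and 0.60, and Des 0.74 and 0.84) and 4 fell, among them Abcc9 and Myh11 (Abcc9 -1.05 and -1.22, and Myh11 -0.69 and -0.75). The list had 2 higher, 5 lower and a median of -0.22 with 6 pairs, and a median of -0.23 with 7. The calls were lost without any 1 of mice 9174, 9175 and 9178 for Pdgfrb and 9174, 9176, 9177 and 9178 for Des. Des is also a gene of cardiomyocytes, and Rgs5, a pericyte marker, was not called (-0.21 and -0.23). Of 7 lymphatic genes 1 rose and 1 fell (median 0.10, 1 higher, 2 lower and a median of 0.29 with 6 pairs, and medians of -0.013 without mouse 9172 and -0.014 without mouse 9175). Pdpn, which fibroblasts of scars also express, was the one that rose (1.72 and 2.03), Prox1, also a cardiomyocyte gene, the one that fell (-0.50 and -0.53, lost without any 1 of mice 9174, 9175, 9177 and 9178), and the number called higher was 2 without mouse 9177. Mesothelial genes varied between hearts, with 2 of 10 called (median 1.38, and 5 higher, 0 lower and a median of 1.82 with 6 pairs), a count that was 0 without any 1 of mice 9172, 9174, 9176 and 9178, 1 without mouse 9175, 5 without mouse 9179 and 6 without mouse 9177. Of 10 glial genes 9 were tested, 4 fell and 3 rose (median -0.74, and 3 higher, 4 lower and a median of -0.79 with 6 pairs). Sox10, the glial transcription factor, fell, while Gap43, of regrowing nerve, and Ngfr, of nerve and its glia, rose (Sox10 -1.31 and -1.35, Gap43 2.13 and 2.29, and Ngfr 1.65 and 1.82). Globin and heme genes of red cells fell in 5 of 5 tested cases (7 listed, median -0.92, and 0 higher, 5 lower and a median of -1.12 with 6 pairs). The nearly identical globin copies may share reads, and the calls were fragile, at 0 without any 1 of mice 9174, 9175, 9177 and 9178 and 1 without mouse 9176. Of 8 adipocyte genes 1 was tested (Cfd, not called), and Adipoq was at most 2.55 CPM in infarct and 3.42 CPM in remote libraries.

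Cell cycle genes rose in 10 of 14 cases (median 1.31, and 10 higher, 0 lower and a median of 1.35 with 6 pairs), a number that was 3 without mouse 9176, 4 without mouse 9177 and 5 without any 1 of mice 9174 and 9178. Top2a, the topoisomerase of dividing cells, had 1.47 to 29.4 CPM in infarct tissue (median 21.2), against 1.04 to 19.4 CPM in remote myocardium (median 5.05). The ranges overlapped, yet each heart had the higher value in its infarct (log2 fold change 1.81 ± 0.51 (SE), adjusted p = 0.0189, and 1.95 without mouse 9179), and the call was lost without mouse 9176. Birc5 and Tyms rose whichever mouse was left out (Birc5 1.68 and 1.76, and Tyms 1.27 and 1.33), whereas the replication licensing genes Mcm2 and Mcm5 were not called (Mcm2 0.29 and 0.36, and Mcm5 0.33 and 0.38). Of 15 ribosomal protein genes 5 rose (median 0.28, and 5 higher, 1 lower and a median of 0.27 with 6 pairs). That count was 2 without mouse 9174, 3 without any 1 of mice 9175, 9176, 9177 and 9178 and 8 without mouse 9172. Rpl10a, of the large subunit, was separated in 7 and 7 libraries (log2 fold change 0.49 ± 0.12 (SE), adjusted p = 0.0123, and 0.50 without mouse 9179).

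Genes of the circadian clock were lower in the infarct than in remote tissue of the same heart. The clock is a feedback loop in which Clock and Arntl (Bmal1) drive Per, Cry and Nr1d genes that repress them in turn, with the output factors Dbp and Tef. Of 12 genes 8 fell and 1 rose (median -0.54, and 1 higher, 8 lower and a median of -0.61 with 6 pairs), and 7 to 8 fell when each mouse was left out. Per2, a repressor, had 3.95 to 24.6 CPM in infarct tissue (median 13.7), against 11.2 to 39.2 CPM in remote myocardium (median 24.5). The ranges overlapped across hearts, but within hearts it was lower in 7 of 7 (log2 fold change -0.89 ± 0.15 (SE), adjusted p = 0.00597, and -1.02 without mouse 9179). Tef had 52.2 to 159 CPM in infarct tissue (median 78.2), against 111 to 281 CPM in remote myocardium (median 149) and was also lower in 7 of 7 (log2 fold change -0.74 ± 0.14 (SE), adjusted p = 0.00696, and -0.86 without mouse 9179). Dbp had 16.8 to 70.7 CPM in infarct tissue (median 34.6), against 53.5 to 118 CPM in remote myocardium (median 74.1), with the same direction in each heart (log2 fold change -0.93 ± 0.22 (SE), adjusted p = 0.0106, and -1.07 without mouse 9179). Per3, Cry2, Nr1d1, Nr1d2 and Per1 fell as well (Per3 -0.75 and -0.87, Cry2 -0.59 and -0.63, Nr1d1 -0.68 and -0.75, Nr1d2 -0.48 and -0.59, and Per1 -0.49 and -0.58), and the call of Per1 was lost without any 1 of mice 9174, 9175 and 9176. Arntl, of the activating limb, had 3.79 to 19.2 CPM in infarct tissue (median 8.16), against 1.24 to 12.4 CPM in remote myocardium (median 5.87) and rose (log2 fold change 0.70 ± 0.19 (SE), adjusted p = 0.0177, and 0.82 without mouse 9179), a call lost without any 1 of mice 9176 and 9178. Clock, its partner, and Cry1, a repressor, were not called (Clock 0.036 and 0.005, and Cry1 -0.22 and -0.22).

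Clock and Arntl bind the E-box, searched as CACGTG, which reads the same on both strands. It was in 3 of the 11 clock genes with a RefSeq promoter (Per1, Tef and Cry1), and in 7.15% of all 32851 promoters. A gene counted if any of its promoters held the E-box (1 of 2 for Per1), so the 2 shares are not of the same unit. Per1 and Tef, which fell, are shown with the E-box in capitals.
Per1 (chr11:69098699-69098998, plus strand): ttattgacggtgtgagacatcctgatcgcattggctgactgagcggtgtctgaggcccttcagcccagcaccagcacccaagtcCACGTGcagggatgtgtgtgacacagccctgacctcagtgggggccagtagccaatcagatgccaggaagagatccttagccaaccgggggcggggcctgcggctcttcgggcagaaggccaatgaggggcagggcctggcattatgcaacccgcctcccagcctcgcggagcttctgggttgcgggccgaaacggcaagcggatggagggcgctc
Tef (chr15:81802423-81802722, plus strand): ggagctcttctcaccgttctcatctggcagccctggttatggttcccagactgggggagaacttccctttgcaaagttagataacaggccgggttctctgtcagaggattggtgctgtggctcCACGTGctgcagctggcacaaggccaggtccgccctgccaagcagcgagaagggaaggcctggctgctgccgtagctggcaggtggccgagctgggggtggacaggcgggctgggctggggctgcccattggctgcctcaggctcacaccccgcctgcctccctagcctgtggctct
Both windows span 250 bases before to 50 after the start in build GRCm38.p6.

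Among genes averaging 1 CPM or more, the 10 higher genes of smallest p were Cd22, 4833412C05Rik, Ngef, Apoc4, Zfas1, Mdfi, Tfec, Apoc1, Cd72 and Rasal3, all called whichever mouse was left out. Zfas1, a host transcript of small nucleolar RNAs, had 17.9 to 33.1 CPM in infarct tissue (median 26.98), against 9.89 to 16.5 CPM in remote myocardium (median 11.2). All infarct libraries, mouse 9179 included, lay above the remote libraries (log2 fold change 1.10 ± 0.11 (SE), adjusted p = 0.0056, and 1.14 without mouse 9179). Apoc1 and Apoc4, which lie beside Apoe in the genome and encode lipoprotein components, rose (Apoc1 2.73 and 2.89, and Apoc4 2.45 and 2.58), and Apoe, as given above, was not called. Cd72, a receptor of B cells and macrophages, and Tfec, a factor of macrophages, rose as well (Cd72 2.77 and 3.02, and Tfec 2.35 and 2.47). Among the 10, log2 fold changes ran between 1.10 for Zfas1 and 3.76 for 4833412C05Rik. The 10 lower genes of smallest p were Notch1, Metrn, Slc1a1, Plxnb3, Arhgap20, Adam1b, Ppp1r26, Stard8, Zfp335 and Afg1l. Notch1, a receptor of cell-to-cell signalling, had 19.4 to 31.9 CPM in infarct tissue (median 27.02), against 35.04 to 53.1 CPM in remote myocardium (median 47.3), with no overlap (log2 fold change -0.78 ± 0.085 (SE), adjusted p = 0.00597, and -0.79 without mouse 9179). Stard8, a GTPase-activating protein, had 29.7 to 52.98 CPM in infarct tissue (median 34.03), against 57.6 to 65.1 CPM in remote myocardium (median 59.6) and was likewise separated (log2 fold change -0.71 ± 0.12 (SE), adjusted p = 0.00597, and -0.80 without mouse 9179), as were Plxnb3, Adam1b, Zfp335 and Afg1l. Log2 fold changes of these 10 ran between -1.51 for Adam1b and -0.59 for Zfp335.

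Whether these responses differed from those of control hearts was tested as the difference between the within-heart changes of 7 CKD and 6 control hearts. No gene of 14767 passed with edgeR (0.0%, lowest adjusted p = 0.255, 2570 genes at an unadjusted p under 0.05). None passed without any 1 mouse either, but the number at an unadjusted p under 0.05 was 3949 without control mouse 9180 (lowest adjusted p = 0.0775), 1643 without control mouse 9171, 1704 without control mouse 9183 and 1196 without mice 9172 and 9179 (lowest adjusted p = 0.557). With limma-voom 1 gene passed, lower (0.00677%), and with DESeq2 383 genes were higher (2.59%) and 16 lower (0.108%) in CKD minus control. In control hearts alone, 9038 of 14328 genes were called between infarct and remote tissue (63.1%), 4644 higher (32.4%) and 4394 lower (30.7%). For transcripts of the 13 mitochondrially encoded proteins, the median infarct over remote log2 fold change was -1.02 in CKD hearts and -2.49 in control hearts. Their median difference was 1.46, or 1.10 without mice 9172 and 9179. For fatty acid oxidation the medians were -1.02 in CKD hearts and -2.25 in control hearts (difference 1.20, or 0.79 without those mice). For contractile genes they were -0.64 in CKD hearts and -1.84 in control hearts (difference 1.14, or 0.87). Without mouse 9179 alone these 3 differences were 1.25, 1.004 and 1.02. Of the 46 lists, 22 had a median difference above 0 and 24 below it, and 14 of them had the other sign without mice 9172 and 9179. The lowest was that of monocyte and neutrophil genes, at 0.78 in CKD hearts and 2.29 in control hearts (difference -1.20, -1.06 without mouse 9179 and -0.81 without both mice). Collagens had 2.71 in CKD hearts and 3.33 in control hearts (difference -0.49, -0.025 and 0.20), and were among those that changed sign. The CKD median of collagens covers 14 genes and the difference of -0.49 covers 15, with Col11a1 added. The median difference over all genes was 0.020, which the scaling also holds near 0. The Nppa response differed by 0.76 ± 0.87 (SE, adjusted p = 0.668), that of Myh6 by 1.54 ± 0.68 (adjusted p = 0.27) and that of S100a9 by -1.89 ± 0.49 (adjusted p = 0.255).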

How the data were processed

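RNA was sequenced from infarct and remote heart pieces, and the authors deposited 1 table of whole-number counts for 27304 genes in 27 libraries, of which 21658 had a count. The submitters' processing notes name kallisto 0.48.0 and the genome build GRCm39. How transcript estimates became whole gene counts, whether strand was used, and the annotation release are not given in the sources used here. Reads of near-identical copies may be split between genes by such estimates.

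Spreadsheet date symbols of 27 genes were set back to gene symbols, and 479 entries that share a symbol were told apart by gene identifier. Libraries were matched to titles, and the mouse number in the labels paired them. The infarct and remote library of a mouse come from the same animal, so mouse was a block in the fit. Deviations of a mouse's own pair from the group means correlated at -0.103 to 0.398 (median 0.214), against a median of -0.0555 between different mice. Taking out group means by itself pulls correlations between different mice below 0. The infarct library matched its own remote library best in mice 9175, 9176 and 9177, but not in mice 9172, 9174, 9178 and 9179. Counts of any 2 libraries of a group differed beyond sampling noise (chi-square of at least 9.52 for each degree of freedom, 42 pairs). The replicates are different animals.

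After filterByExpr and TMM scaling, the test was edgeR's quasi-likelihood F test (edgeR 4.0.16, R 4.3.3). p-values were adjusted over all genes by the Benjamini-Hochberg method, and a gene was called at an adjusted p under 0.05. The difference between CKD and control hearts was the interaction term in a fit of 26 libraries with mouse as a block. CPM are deposited counts scaled to 1000000 per library with TMM factors, and a prior count of 2 was used for log2 values per library. Alternatives were fits without the block, scaling by DESeq2 size factors or by upper quartile, testing unfiltered genes or those averaging 1 CPM or more, DESeq2 1.42.0, limma-voom (limma 3.58.1) with sample weights, and leaving out each mouse, or mice 9172 and 9179 (for the interaction also with 9180).

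The members, the 46 gene lists (602 names, 601 found, 20 under older symbols) and the 30 isoform pairs were chosen with earlier results of these data known. Genes were named by a rule: the 10 genes of smallest p on either side among those averaging 1 CPM or more, the 3 with the smallest p of each list and the leading member of the opposite direction, both genes of each pair, and Apoe, Nppa, Nppb, Myh6, Myh7 and Col1a1. Other list members were chosen after their values were seen, and a few genes are not reported here. Promoters came from RefSeq, build GRCm38.p6. In the fits with mouse as a block, p-values set the mean difference between infarct and remote tissue against its variation from mouse to mouse.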

Additional observations from a re-analysis of the deposited data

Results flagged for a closer look

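Within each group of 7 libraries, the highest or lowest value, on the log2 scale of CPM or of a list's share of counts (library totals on their own scale), was set against Dixon's critical value of 0.568 for 7 samples, a limit that chance passes in about 1 of 20 groups. Of 118 groups tested for the genes, gene-list shares and library totals given above, 11 passed. In 8 of these the library labelled infarct of mouse 9179 stood far from the other infarct libraries. It had the lowest level of Col1a1 (74.6 CPM), Col3a1 (111 CPM), Postn (17.8 CPM), Cthrc1 (0.164 CPM), Lox (2.46 CPM), Sfrp2 (2.95 CPM) and Timp1 (6.14 CPM), and the highest of Myl7 (199.98 CPM). The remote library of the same mouse had the lowest remote Ankrd1 (399 CPM) and Pgd (35.6 CPM). The remote library of mouse 9177 had the highest remote Tef (281 CPM).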

How the results depend on the processing

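With mouse as a block, 6281 genes were called between infarct and remote tissue, and the fit without the block, which ignores the pairing, called 5451, or 5797 with the remote library of mouse 9173 and 6644 in a fit of all 27 libraries. Of its calls 58.6% were higher, against 52.7% with the block. The counts were 6323 with DESeq2 size factors, 6349 with upper-quartile scaling, 6180 with no filter, 6173 with a mean of at least 1 CPM, 6879 with DESeq2 and 8486 with limma-voom. Leaving out 1 mouse gave 3894 to 7875 calls, with 3894 without mouse 9174 and 3965 without mouse 9178, and 8417 without mice 9172 and 9179. The difference between CKD and control hearts had 399 calls with DESeq2, 1 with limma-voom and 0 in each other fit, including each that left out 1 mouse; the cause was not tested. Without the block, 19 of the genes given with values lost their call and 9 of 46 list counts moved by over 1.5 times.

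The genes whose sign changed were not called with 7 pairs, and the cause was not tested. Apoe had log2 fold changes of 0.0067 without the block and 0.00073 with the library of mouse 9173 added, and -0.18 to 0.056 when 1 mouse was left out. Gja1 had -0.0011 with upper-quartile scaling, -0.0028 with no filter, -0.016 with limma-voom, -0.054 without mice 9172 and 9179, and -0.079 to 0.097 when 1 mouse was left out. S100a9 had 0.074 without the block with mouse 9173 added and 0.040 in the fit of all 27 libraries, and Clock had -0.020 in that fit. With 1 mouse left out, Clock had -0.029 to 0.083 and Myh7 -0.069 to 0.20. Depth and 7 mice limit genes near the filter: 9 T and NK cell genes did not pass it.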
